A study of Mus musculus with 51 samples.

Results

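The forelimb bud of the mouse at E9.5, the stage at which it first stands out from the flank, was compared with the intact embryo of the same stage. The data are 5 of the 51 whole-genome expression arrays of a study of limb development, 3 arrays titled as forelimb at E9.5 and 2 titled as whole embryo at E9.5, and the 5 arrays were chosen by those titles. All came from FVB mice, an inbred albino strain, with noon of the day of the copulatory plug taken as E0.5. No animal carried a mutation or received a treatment by the labels. Each array held total RNA of an unpooled sample labelled with biotin in 2 cycles, and the forelimbs of a stage came from embryos of 1 litter, so litter and stage cannot be told apart. The p-values below therefore measure the spread between arrays, pooled over the groups of all 51 arrays, and not that between litters. Whole embryos were left intact, forelimbs included, so every difference is one between a bud and a whole of which the bud is a small share. E9.5 forelimb is the only limb group that was run in the same set of arrays as the whole embryos.

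A limb bud starts as mesenchyme of the lateral plate covered by surface ectoderm. The ectoderm at its rim forms the apical ectodermal ridge, which signals to the mesenchyme by fibroblast growth factors, while sonic hedgehog from the posterior margin and WNT7A from the dorsal ectoderm pattern the other axes. Hox genes of the A and D clusters are switched on in the order of their position in the cluster, muscle precursors enter from the somites, and vessels grow in. The rest of the embryo at this stage holds a beating heart tube, a neural tube that is starting to make neurons, somites, gut and a tail bud.

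The 2 embryo arrays differed in quality. The 3′ control probe set of Gapdh lay above the 5′ one by 1.71, 1.73 and 1.48 on the log2 scale on the forelimb arrays, against 2.03 on embryo array 1 and 2.85 on embryo array 2. For Actb the distances were 1.14, 1.11 and 1.38 on the forelimb arrays, against 1.30 and 2.07 on embryo arrays 1 and 2. Tfrc did not follow this order, with 1.61, 2.05 and 1.57 on the forelimb arrays, against 1.98 on embryo array 1 and 1.55 on embryo array 2. Across all genes the log2 signals of forelimb pairs correlated at 0.995 to 0.996 and those of the embryo pair at 0.969. Embryo array 2 was the more distant of the pair, with correlations of 0.956 to 0.962 to the forelimb arrays, against 0.978 to 0.981 for embryo array 1. All values below are log2 of the deposited RMA signal, as the mean of all probe sets that name the gene, and all differences are forelimb minus embryo on that scale. A gene was called higher or lower where its fold change was at least 2 with a Benjamini-Hochberg adjusted p under 0.001 in limma, fitted over all 51 arrays. It was counted as held where it was also called against embryo array 1 alone and against embryo array 2 alone, and where all 3 forelimb arrays lay on 1 side of both embryo arrays. Against a single embryo array the fit assumes that the embryo varies as the other groups do.

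Of 18194 genes, 378 were called higher (2.08%) and 293 lower (1.61%) in forelimb against the mean of the embryo arrays. Held against each embryo array were 90 genes that were higher (0.495%) and 195 that were lower (1.07%), together 285 (1.57%). With quantile normalization between all arrays the calls on the mean were 229 higher and 352 lower. When the spread was taken from the array set that holds the embryos alone, 42 higher and 112 lower genes held, among them the 20 highest and the 20 lowest described below. Array weights left 37 higher and 51 lower genes held, and the 5 arrays of E9.5 fitted alone left 2 and 17. With the 3′ to 5′ distance of Gapdh and Actb as a covariate in limma none held in either direction, while 33 higher and 230 lower genes held at an unadjusted p under 0.05. The counts of held genes thus depend on the fit. With the covariate all 285 genes kept their direction. With the array set of the embryos alone, array weights or the E9.5 arrays alone the direction could not change. By the definition of held, the forelimb and embryo arrays of these genes do not overlap. Against embryo array 1 alone 120 genes were called higher (0.66%) and 314 lower (1.73%), and against embryo array 2 alone 1633 higher (8.98%) and 344 lower (1.89%). Of the calls in the fit of all arrays, 23.8% of the higher and 66.6% of the lower ones held. Of the 288 higher calls that did not hold, 277 were called against embryo array 2 alone and 11 against embryo array 1 alone. In these 288 genes embryo array 2 lay below embryo array 1 by a median of 1.42, against a median of 0.20 in the 90 genes that held. The width of this gap follows in part from the definition of held, whereas its direction does not. The lower calls that did not hold were more even, with 51 of 98 called against embryo array 2 alone and 41 against embryo array 1 alone. The gap between the embryo arrays grew with the level of a gene: from the lowest to the highest of 4 equal groups of genes by forelimb signal, the median of embryo array 2 minus embryo array 1 was 0.03, −0.04, −0.18 and −0.32.

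**Figure D1:**
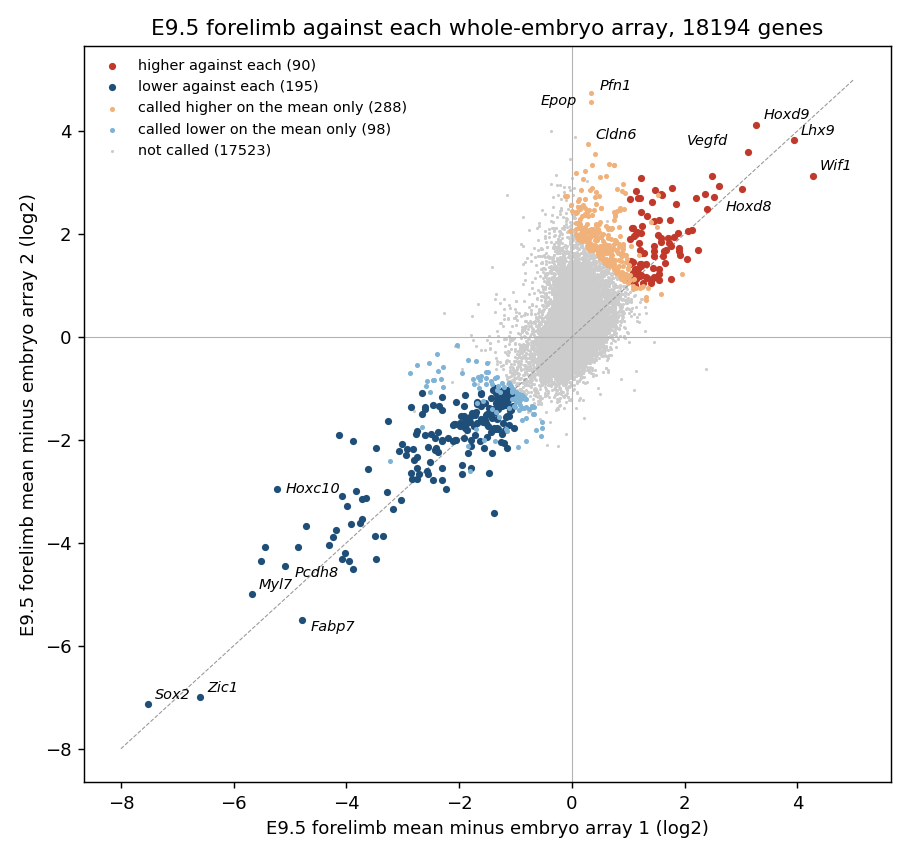
Log2 difference of the mean of 3 E9.5 forelimb arrays to embryo array 1 (horizontal axis) and to embryo array 2 (vertical axis) for 18194 genes, with the dashed line where both are equal. Genes held lower run along the line down to Sox2 and Zic1. Of the 288 genes called higher on the mean only (orange), 277 were called against embryo array 2 and not against embryo array 1.

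Profilin 1 shows the pattern of a call that did not hold. Pfn1, which encodes an actin-binding protein, read 11.37, 11.28 and 11.31 in forelimb, against 10.99 on embryo array 1 and 6.59 on embryo array 2. It lay 0.33 above the first and 4.73 above the second, and with Epop, Cldn6, Upf1 and Get3 had the widest gap between the embryo arrays among the higher calls that did not hold. The differences to embryo array 1 were 0.33 for Epop, 0.29 for Cldn6, 0.41 for Upf1 and 0.07 for Get3. Among the lower calls that did not hold, Uchl1, Tubb3, Car4, Wnt1 and Tbx6 had the widest gap. Tubb3, a tubulin of neurons, read 6.23, 5.74 and 6.30 in forelimb, against 8.96 on embryo array 1 and 6.79 on embryo array 2. Embryo array 2 was thus the nearer of the pair to forelimb for Tubb3, and likewise for Uchl1 (−0.54 against embryo array 2 and −2.75 against embryo array 1), Car4 (−0.33 and −2.39), Wnt1 (−0.52 and −2.53) and Tbx6 (−0.17 and −2.04).

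The forelimb arrays carried the markers of their label. Tbx5, the T-box factor that starts forelimb outgrowth, read 7.69, 8.05 and 7.62 in forelimb, against 6.20 and 5.86 in whole embryo (1.75 ± 0.23 SE, limma adjusted p = 6.95e-08). Prrx1, a homeobox gene of limb mesenchyme, read 7.92, 7.83 and 7.84 in forelimb, against 5.96 and 6.15 in whole embryo. Both genes held. The hindlimb genes went the other way: Tbx4, which starts hindlimb outgrowth, read 4.68, 4.35 and 4.55 in forelimb, against 5.72 and 5.80 in whole embryo, and held lower. Pitx1, which acts before it, was lower by log2 differences of −1.55 and −0.26 to embryo arrays 1 and 2 and was not called. Isl1, needed for the hindlimb bud and also a gene of motor neurons and of the heart field, read 5.10, 5.21 and 5.28 in forelimb, against 8.91 and 8.74 in whole embryo. Fgf10, the mesenchymal signal to the ridge, averaged 5.37 ± 0.21 in forelimb (SD, n = 3) and 4.79 ± 0.18 in whole embryo (SD, n = 2) and did not reach the fold threshold.

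The LIM homeobox gene Lhx9 was the gene with the highest difference that held. Lhx9, which in mouse acts with Lhx2 and Lmx1b in limb mesenchyme below the ridge, read 9.43, 9.31 and 9.43 in forelimb, against 5.45 and 5.57 in whole embryo. The embryo arrays lay 0.11 apart and the forelimb arrays were 3.82 or more above each of them on average (3.88 ± 0.15 SE, 14.7-fold, limma adjusted p = 3.67e-24). Lhx2 read 9.23, 9.49 and 9.72 in forelimb, against 7.72 and 6.59 in whole embryo. It was 1.77 above embryo array 1 and 2.89 above embryo array 2. The third gene of this trio, Lmx1b, gives dorsal fate to the mesenchyme and read 7.08, 7.21 and 7.34 in forelimb, against 5.96 and 5.05 in whole embryo (1.70 ± 0.16 SE, limma adjusted p = 2.76e-11). All 3 held.

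Beside Lmx1b lies C130021I20Rik, a gene without an assigned function in the tables used, which also held and stood above Lmx1b in the order of differences. C130021I20Rik read 7.84, 7.90 and 8.03 in forelimb, against 4.92 and 5.06 in whole embryo, so that all forelimb arrays were at least 2.87 log2 above either embryo array on average (2.94 ± 0.13 SE, limma adjusted p = 4.93e-22). The genes are transcribed away from each other. In RefSeq on GRCm38.p6 the window from 250 bases before to 50 bases after the start of C130021I20Rik is chr2:33640943-33641242 on the plus strand and that of Lmx1b is chr2:33641049-33641348 on the minus strand, and they share 194 bases. The window of C130021I20Rik is shown to place this stretch, with the bases that also belong to the window of Lmx1b in capitals.
C130021I20Rik: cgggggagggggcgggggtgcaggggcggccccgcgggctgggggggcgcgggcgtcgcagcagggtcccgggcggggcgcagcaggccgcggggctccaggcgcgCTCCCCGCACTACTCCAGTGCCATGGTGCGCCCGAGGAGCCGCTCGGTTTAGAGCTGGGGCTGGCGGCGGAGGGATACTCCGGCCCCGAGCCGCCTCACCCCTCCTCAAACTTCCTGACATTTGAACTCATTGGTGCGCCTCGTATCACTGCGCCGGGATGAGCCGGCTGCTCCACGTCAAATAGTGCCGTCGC

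Of 38 measured transcription factors of limb mesenchyme, 16 were called higher and 2 lower, and 12 held higher and 1 held lower, with a median difference of 0.83 beside 0.08 over all genes. The list was chosen with earlier results of these data known, as were the others, so its counts are a description. Over all genes 2.08% were called higher, 1.61% were called lower and 1.57% held in either direction. Beside these shares, 1 called or held gene says little about its list, here and below. Shox2, which in mouse is needed for the upper arm, read 7.15, 7.10 and 7.48 in forelimb, against 5.01 and 5.56 in whole embryo. Tbx15, a gene of dorsal and proximal mesenchyme, read 5.96, 6.12 and 6.77 in forelimb, against 4.68 and 4.72 in whole embryo. The differences to embryo arrays 1 and 2 were 2.23 and 1.69 for Shox2 and 1.61 and 1.56 for Tbx15. Prrx2, Twist1, Msx1 and Pkdcc held with a wider gap, being 1.13, 1.17, 1.06 and 1.23 above embryo array 1 and 2.84, 2.70, 2.11 and 3.09 above embryo array 2. Prrx2 is the paralogue of Prrx1, Twist1 and Msx1 keep mesenchyme growing and undifferentiated, and Pkdcc encodes a secreted kinase. Alx1, a homeobox gene of mesenchyme, was 1.66 and 1.43 above embryo arrays 1 and 2. The members called lower were Zeb2 (−1.07), which did not hold, and Tfap2b, which read 5.97, 5.42 and 5.86 in forelimb, against 7.61 and 7.55 in whole embryo. Tfap2b held and is known for its part in neural crest, among whose genes it was listed too. Tbx3 (0.74), Hand2 (0.98), Meis1 (0.53) and Meis2 (0.48), which mark the posterior margin or the proximal bud, lay above both embryo arrays on average without reaching a fold of 2. These are means over all probe sets of a gene, and with the probe set of highest mean alone Tbx3 (2.18) and Hand2 (1.42) were called higher.

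**Figure D2:**
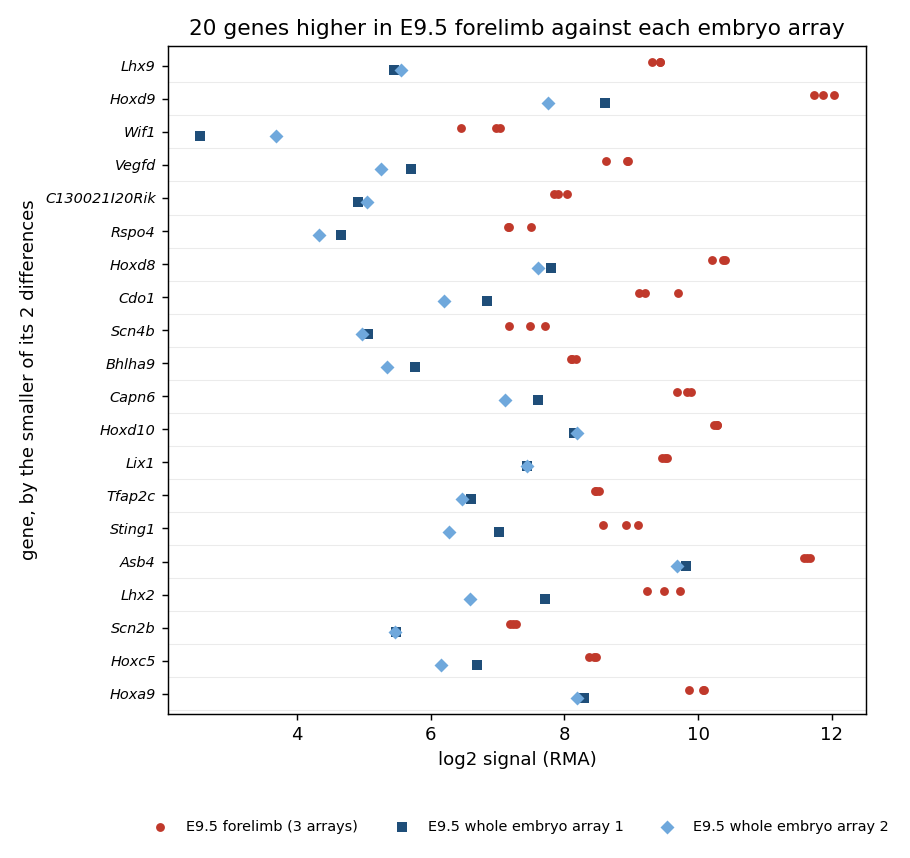
Log2 RMA signal on each of the 3 E9.5 forelimb arrays (circles, upper row of each gene) and the 2 whole-embryo arrays (square, array 1, and diamond, array 2, lower row) for the 20 genes of highest difference that held, ordered by the smaller of the differences to either embryo array. By the definition of held no gene shown has a forelimb array within the range of the embryo arrays, from Lhx9 at the top to Hoxa9.

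In the HoxD and HoxA clusters the genes that held belonged to paralogue groups 8 to 11. Of 10 measured genes of the HoxD cluster and its flanks, Hoxd8, Hoxd9 and Hoxd10 held, and no other was called. Hoxd9 read 11.72, 12.04 and 11.87 in forelimb, against 8.61 and 7.76 in whole embryo (3.69 ± 0.18 SE, limma adjusted p = 1.53e-20). Hoxd8 read 10.20, 10.40 and 10.37 in forelimb, against 7.80 and 7.61 in whole embryo, and Hoxd10 read 10.23, 10.28 and 10.28 in forelimb, against 8.14 and 8.18 in whole embryo. The difference thus stood at 2.62 in Hoxd8, 3.69 in Hoxd9 and 2.11 in Hoxd10, and the next genes towards the 5′ end, which are known to rise later in the distal bud, were at 0.45 for Hoxd11 and 0.28 for Hoxd12. Gm38462, a gene annotated between Hoxd9 and Hoxd8, held as well and read 5.01, 5.20 and 5.08 in forelimb, against 3.65 and 3.53 in whole embryo. It is in no list of genes and was named after its values were seen.

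In the HoxA cluster Hoxa9 and Hoxa11 held, and the gene between them did not. Hoxa9 read 9.87, 10.07 and 10.09 in forelimb, against 8.29 and 8.19 in whole embryo. Hoxa11, needed for the lower arm, read 8.35, 8.19 and 8.33 in forelimb, against 6.95 and 5.94 in whole embryo. Hoxa10 differed by 0.43 and was not called. Hoxa5 was called on the mean and against embryo array 1 (1.26) but stayed below a fold of 2 against embryo array 2 (0.99). In the HoxB cluster 2 of 9 measured genes were called and none held: Hoxb5 differed by 1.53 and 2.75 and Hoxb6 by 1.40 and 2.23 from embryo arrays 1 and 2, and neither passed the adjusted p against embryo array 1 alone (0.0168 for Hoxb5 and 0.00632 for Hoxb6 in limma).

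The HoxC cluster held genes of both directions. Hoxc5, which belongs to the anterior part of the cluster, read 8.37, 8.44 and 8.47 in forelimb, against 6.69 and 6.16 in whole embryo. Hoxc10, expressed at hindlimb level and in the tail, read 4.11, 3.62 and 4.13 in forelimb, against 9.19 and 6.91 in whole embryo (−4.10 ± 0.35 SE, limma adjusted p = 1.93e-12). Between them, Hoxc6 (0.86), Hoxc8 (0.99) and Hoxc9 (−0.49) were not called. The forelimb arrays thus lay above the embryo for Hoxc5 and below it for Hoxc10, 5 paralogue groups apart in the same cluster.

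**Figure D3:**
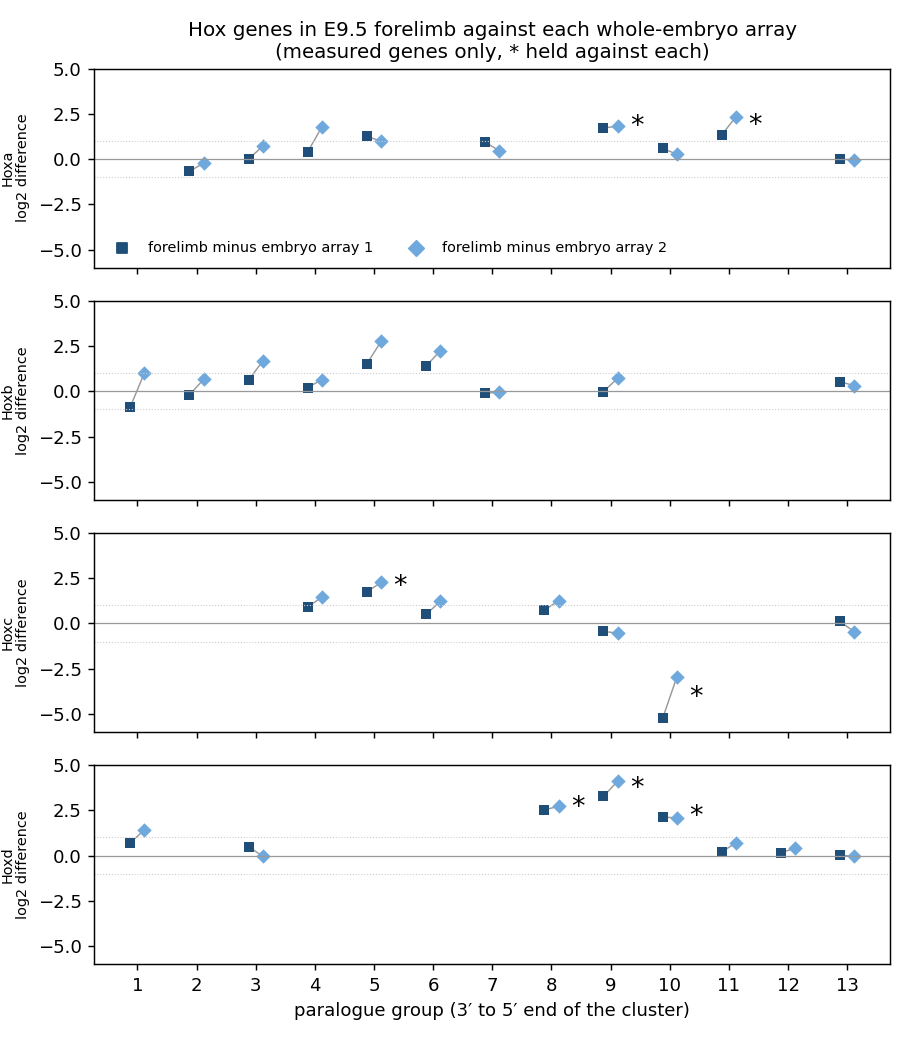
Log2 difference of the forelimb mean to embryo array 1 (squares) and embryo array 2 (diamonds) for the measured genes of each Hox cluster, by paralogue group on the horizontal axis, with dotted lines at a fold of 2 and asterisks on genes that held. Hoxd8, Hoxd9 and Hoxd10 stand out in the HoxD cluster, and Hoxc10 is the only Hox gene that held lower.

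Secreted proteins that act on WNT signalling held in both directions. The inhibitor Wif1, which binds WNT proteins outside the cell, read 7.04, 6.45 and 6.98 in forelimb, against 2.56 and 3.69 in whole embryo (3.70 ± 0.27 SE, limma adjusted p = 2.34e-14). The embryo arrays themselves were 1.14 apart for Wif1, with a signal near the bottom of the scale. The R-spondins, secreted proteins that strengthen WNT signalling, went both ways. Rspo4 read 7.16, 7.50 and 7.18 in forelimb, against 4.66 and 4.34 in whole embryo, whereas Rspo3 read 4.56, 4.86 and 4.85 in forelimb, against 6.57 and 6.41 in whole embryo, and both held. Rspo2, which is known from the ridge, differed by 0.76 and was not called, but was called with the probe set of highest mean (1.89).

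Of 19 measured WNT ligands, Wnt6 and Wnt11 were called higher and Wnt1 and Wnt3a lower, and of these 4 only Wnt6 held. Wnt6, a ligand of the ectoderm, read 8.55, 8.79 and 8.73 in forelimb, against 7.09 and 5.93 in whole embryo. Wnt7a, the dorsal signal, lay 0.64 above whole embryo and was not called as the mean of its probe sets, but was called with the one of highest mean (1.94). Among 25 WNT receptors, signalling components and targets only Lef1 was called, beside 2.08% of all genes called higher and 1.61% lower. Lef1, a transcription factor of the pathway, held, reading 9.03, 9.22 and 9.06 in forelimb, against 7.67 and 6.48 in whole embryo. Apcdd1 and Daam2, an inhibitor and a component of WNT signalling that no list held, were 1.16 and 1.21 above embryo array 1 and 1.25 and 2.70 above embryo array 2 and held, and they were named after their values were seen.

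Among fibroblast growth factor ligands and receptors 3 of 21 were called and 1 held, and among targets and feedback inhibitors 4 of 12 were called and 2 held. The ridge ligand Fgf8 read 7.60, 7.36 and 8.09 in forelimb, against 6.78 and 4.71 in whole embryo, which is 2.98 above embryo array 2 but 0.91 above embryo array 1, and it was not held. Fgf15, a ligand of the neural tube, was the 1 that held. It was lower and read 5.06, 4.66 and 4.99 in forelimb, against 7.71 and 7.30 in whole embryo. The called targets were higher, and all 3 forelimb arrays lay above both embryo arrays in 10 of 12, beside 27% of all genes. Etv5, an ETS factor switched on by the pathway, read 7.21, 7.36 and 7.36 in forelimb, against 6.03 and 5.68 in whole embryo, and held. Egr1, an early response gene, was 1.54 and 1.22 above embryo arrays 1 and 2 and held, and Spry1 and Dusp6 were called on the mean (1.66 and 1.03) without holding. Dusp9, a phosphatase of the same family as Dusp6 and in no list, held with 1.11 and 1.96.

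Of 21 ridge genes none was called lower, Fgf8, Bmp4, Dlx2, Bhlha9 and Jag2 were called higher, and the last pair held. Bhlha9, a basic helix-loop-helix gene of the ridge, read 8.10, 8.12 and 8.17 in forelimb, against 5.76 and 5.35 in whole embryo (2.57 ± 0.18 SE, limma adjusted p = 2.33e-15). Jag2, a Notch ligand that limits the ridge, read 7.53, 7.73 and 7.74 in forelimb, against 6.50 and 5.63 in whole embryo. Sp8 (0.83), Sp6 (0.71) and Trp63 (0.62), transcription factors on which the ridge depends, lay above both embryo arrays on average and were not called. With the probe set of highest mean Sp6 (1.68) and Trp63 (1.95) were called. Surface ectoderm as a whole had 6 of 21 genes called higher and none lower, with a median of 0.32. Those that held were Wnt6, Tfap2c, Krt5 and Perp. Tfap2c, a transcription factor of ectoderm and germ cells, read 8.48, 8.51 and 8.46 in forelimb, against 6.61 and 6.47 in whole embryo. Krt5, a keratin of the basal layer, read 7.45, 7.35 and 7.66 in forelimb, against 5.79 and 5.57 in whole embryo, and Perp, a protein of desmosomes, 10.20, 10.10 and 10.02 in forelimb, against 8.44 and 8.42 in whole embryo. A larger share of ectoderm in the bud and more RNA of these genes per ectodermal cell cannot be told apart in bulk RNA, and the same holds for every tissue below.

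Among BMP genes Bmp7, a ligand, read 7.55, 7.76 and 7.93 in forelimb, against 6.52 and 5.32 in whole embryo, and held. Bmp4 was called on the mean (1.24) but was 0.81 above embryo array 1 and did not hold. Bambi, a decoy receptor and target, was 1.18 and 1.83 above embryo arrays 1 and 2 and held. The secreted inhibitor Fst held lower, reading 6.19, 6.21 and 5.76 in forelimb, against 7.97 and 8.01 in whole embryo, and so did Id4 (−1.61), a target gene known from the neural tube. Grem1, the BMP inhibitor of the limb, differed by 0.63 and was not called. Of 14 TGF beta and activin genes only Tgfb2 was called and it held, with 1.08 and 1.24, beside 1.57% of all genes that held.

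Hedgehog genes were lower where they held. Shh itself, made in the posterior margin of the bud and in notochord and floor plate, read 5.17, 5.11 and 5.43 in forelimb, against 6.92 and 6.91 in whole embryo. Shh was below both embryo arrays in 1 of its 2 probe sets. Its target Gli1 read 5.23, 4.57 and 5.34 in forelimb, against 7.35 and 6.21 in whole embryo, and the receptor and target Ptch1 differed by −0.88 and was not called, but was called lower with the probe set of highest mean (−1.59). Gli2 (0.93) and Gli3 (0.57), which carry the signal to the target genes, were not called either and lay above both embryo arrays on average. Of 16 genes of the pathway Disp1 (1.11), which releases the ligand, was called higher and Hhip (−1.19), which binds it, lower, and neither held.

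In the retinoic acid pathway genes held in both directions. Rdh10, which makes retinal, read 9.94, 10.07 and 10.09 in forelimb, against 8.77 and 9.00 in whole embryo, and the receptor gene Rarb, itself switched on by retinoic acid, read 8.21, 8.28 and 7.99 in forelimb, against 6.63 and 6.19 in whole embryo. Both held higher. Cyp26a1, which degrades retinoic acid and is known from the tail bud, read 6.81, 6.44 and 6.50 in forelimb, against 8.44 and 8.21 in whole embryo, and Aldh1a3, a synthesis enzyme of the eye and nose, read 4.64, 4.52 and 4.72 in forelimb, against 6.25 and 5.93 in whole embryo. Both held lower. Cyp26b1, the degrading enzyme of the limb, differed by 0.81 and was not called.

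Notch genes held lower in 4 of 18 and higher in 1, with a median of −0.46. The target Hes5 read 4.88, 5.08 and 4.89 in forelimb, against 9.14 and 8.71 in whole embryo. The ligand Dll1 read 6.22, 6.17 and 6.56 in forelimb, against 9.14 and 8.50 in whole embryo, and Dll3 read 5.56, 5.44 and 5.94 in forelimb, against 9.78 and 7.56 in whole embryo. These 3 genes are known from neural tube and presomitic mesoderm. Hey2, a target known from the heart, differed by −1.36. The gene that held higher was Jag2, described with the ridge. In the forelimb arrays the ligands were thus divided, with Jag2 above and Dll1 and Dll3 below both embryo arrays.

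Vessel and muscle signals each had members that held, beside 1.57% of all genes. Vegfd, a growth factor for lymphatic and blood vessels, read 8.62, 8.96 and 8.94 in forelimb, against 5.71 and 5.25 in whole embryo (3.36 ± 0.20 SE, limma adjusted p = 1.81e-17), and none of the other 12 VEGF and angiopoietin genes was called, the receptor gene Kdr among them (0.41). Of 20 endothelial genes only Etv2, which starts the endothelial and blood lineages, held, reading 8.20, 8.63 and 8.52 in forelimb, against 7.02 and 7.12 in whole embryo. Hgf, the signal of limb mesenchyme that draws muscle precursors in, read 6.73, 6.82 and 6.57 in forelimb, against 4.79 and 5.12 in whole embryo. Lbx1, the homeobox gene of the migrating precursors, read 6.88, 6.85 and 7.24 in forelimb, against 5.40 and 5.16 in whole embryo, and was the single one of 13 measured muscle precursor genes that held. With the probe set of highest mean it differed by 0.81 and was not called. Met, the receptor of HGF, differed by 0.81, and Pax3, expressed throughout the dermomyotome, by −0.61, and neither was called, although Met was with the probe set of highest mean (1.36). Hgf is in no list and was named after its values were seen.

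Several genes of highest difference have no textbook role in limb patterning. Cdo1, cysteine dioxygenase, read 9.12, 9.20 and 9.69 in forelimb, against 6.85 and 6.21 in whole embryo. Cth, cystathionine gamma-lyase, which makes the cysteine that CDO1 oxidises, read 10.45, 10.35 and 10.57 in forelimb, against 9.31 and 9.26 in whole embryo, and held as well. The genes of 2 beta subunits of the voltage-gated sodium channel, Scn4b and Scn2b, lie within 100 kb of each other and both held. Scn4b read 7.49, 7.70 and 7.17 in forelimb, against 5.06 and 4.97 in whole embryo, and Scn2b read 7.19, 7.23 and 7.28 in forelimb, against 5.48 and 5.47 in whole embryo. Mpzl3, an adhesion protein of the epidermis in the same group of genes within 100 kb, read 6.96, 7.10 and 7.11 in forelimb, against 5.73 and 5.92 in whole embryo. The rest of the 20 were Capn6 (2.20 and 2.69 against embryo arrays 1 and 2), Lix1 (2.06 and 2.05), Sting1 (1.84 and 2.59) and Asb4 (1.81 and 1.95). Capn6 encodes a calpain that binds microtubules, Sting1 a sensor of innate immunity and Asb4 a protein of ubiquitin ligases. All 4 differed by at least 1.81 from either embryo array. Cth and Mpzl3 were named after their values were seen.

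The smaller of the differences to either embryo array had a median of −1.57 over the 195 lower genes, against 1.32 over the 90 higher genes. Probe sets of a gene did not always go together. Among genes held lower with several probe sets, the forelimb mean was below both embryo arrays in every probe set in 59 of 81. Among those held higher it was above both in every probe set in 40 of 41. For Shh, Tbx4, Pou3f3 and Myocd, which held lower, it was below both in 1 of 2 probe sets. For Cryab and Tbx20, which held lower too, it was below both in 2 of 3. Sox2, a transcription factor of neural progenitors, read 3.82, 3.63 and 3.37 in forelimb, against 11.13 and 10.74 in whole embryo (−7.33 ± 0.73 SE, limma adjusted p = 1.06e-10). Zic1, a zinc finger gene of dorsal neural tube and somites, read 3.67, 3.25 and 3.01 in forelimb, against 9.91 and 10.31 in whole embryo. Against the nearer embryo array the difference was −7.13 for Sox2 and −6.60 for Zic1. Their forelimb values lay at the low end of the scale, and no detection call was used here that would tell such a signal from background.

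**Figure D4:**
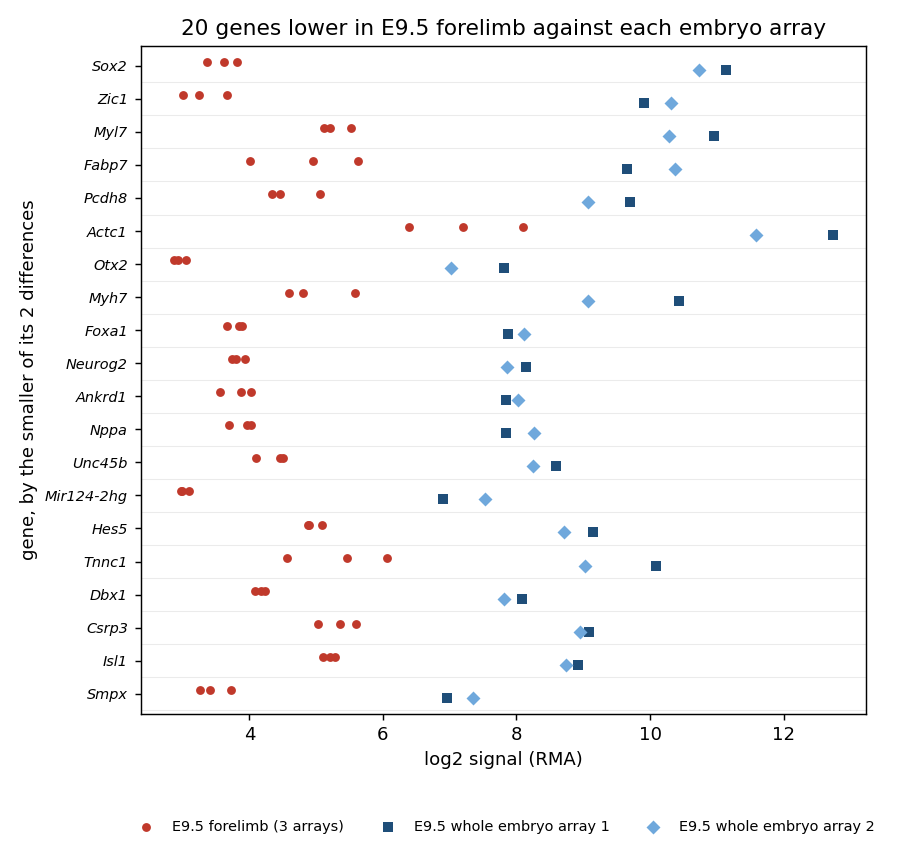
Log2 RMA signal on each of the 3 E9.5 forelimb arrays (circles, upper row of each gene) and the 2 whole-embryo arrays (square, array 1, and diamond, array 2, lower row) for the 20 genes of largest negative difference that held. Sox2, Zic1 and Otx2 lie below 4 on the forelimb arrays, and Actc1 and Fabp7 have the widest spread among forelimb arrays.

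Among neural progenitor genes 19 of 30 were called lower, 16 held and none was called higher, with a median of −1.57. Fabp7, a fatty acid binding protein of radial glia, read 5.62, 4.95 and 4.01 in forelimb, against 9.66 and 10.37 in whole embryo. Otx2, a gene of forebrain and midbrain, read 3.05, 2.94 and 2.87 in forelimb, against 7.81 and 7.03 in whole embryo, and Dbx1, a gene of the middle of the neural tube, read 4.09, 4.23 and 4.18 in forelimb, against 8.09 and 7.81 in whole embryo. En2 of the midbrain and hindbrain border differed by −3.10, and the motor neuron progenitor gene Olig2 by −2.96. All 5 held. Genes of the head and of the trunk neural tube thus both held lower.

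Neuronal genes were called lower in 15 of 25, with 9 held and a median of −1.43. Neurog2, which starts neuronal differentiation, read 3.93, 3.80 and 3.74 in forelimb, against 8.14 and 7.86 in whole embryo, and Neurod1 differed by −3.15. Mir124-2hg, the host transcript of a neuronal microRNA, read 2.99, 3.09 and 2.98 in forelimb, against 6.89 and 7.53 in whole embryo. Pcdh8, a protocadherin of brain and somites, was the only one of 22 cadherins and protocadherins that was called and read 5.06, 4.34 and 4.45 in forelimb, against 9.70 and 9.07 in whole embryo. The single neuronal gene that held higher was Crmp1, which encodes a cytoskeletal protein of growing axons and read 10.04, 10.32 and 10.34 in forelimb, against 9.11 and 8.25 in whole embryo.

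Heart genes had the lowest median of the 48 lists, −3.24, with 19 of 24 called lower, 17 held and none called higher. Myl7, the atrial light chain, read 5.52, 5.21 and 5.13 in forelimb, against 10.96 and 10.29 in whole embryo (−5.34 ± 0.19 SE, limma adjusted p = 8.77e-26). Actc1, cardiac actin, read 8.10, 7.20 and 6.40 in forelimb, against 12.74 and 11.59 in whole embryo, with a spread of the forelimb arrays that was wider than in Myl7. Tnnc1, a troponin, read 6.06, 5.46 and 4.56 in forelimb, against 10.08 and 9.03 in whole embryo. Forelimb array 1 was the highest of the 3 forelimb arrays in Actc1, Tnnc1 and Myl7 and in 8 of the 17 heart genes that held. Myh7 read 5.58, 4.80 and 4.60 in forelimb, against 10.44 and 9.07 in whole embryo. Myh6, its neighbour and close relative in sequence, read 3.19, 3.24 and 3.25 in forelimb, against 6.95 and 6.38 in whole embryo. These Myh6 values average 2 probe sets, and the forelimb mean was below both embryo arrays in 1 and above both in the other. How far the probe sets keep Myh6 and Myh7 apart was not tested.

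The peptide hormone genes Nppa and Nppb, also neighbours, both held. Nppa read 3.96, 3.70 and 4.03 in forelimb, against 7.85 and 8.26 in whole embryo, and Nppb read 4.50, 4.83 and 4.70 in forelimb, against 6.63 and 7.34 in whole embryo. Ankrd1, Unc45b, Csrp3 and Smpx, genes of the contractile apparatus of heart and skeletal muscle, differed by −4.11, −4.06, −3.68 and −3.68. Of the 5 cardiac transcription factors in the list Tbx20 held (−1.25, with 5.23 and 5.57 in whole embryo, near the low end of the scale), and Nkx2-5 was called on the mean (−1.28) and not held. Gata4 (−0.31), Gata6 (0.20) and Hand1 (−0.10) were not called. Isl1, listed elsewhere, is described with the hindlimb genes.

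A motif known from promoters of muscle genes was searched for in the genes that held. It was the CArG box, bound by serum response factor, on both strands of the RefSeq windows from 250 bases before to 50 after the start. It stood in 3 of 17 heart genes that held (17.6%) and in 2 of 19 neural genes held lower with a window. It was in 12 of 146 genes held lower with a window (8.22%) and in 1 of 66 held higher (1.52%). Over all genes tested with a window it was in 197 of 14453 (1.36%). These shares are a description and were not tested. The 3 windows of heart genes are shown, with the CArG box in capitals, for Actc1 at chr2:114052826-114053125 on the minus strand, Myl3 at chr9:110763428-110763727 on the plus strand and Myl7 at chr11:5898733-5899032 on the minus strand of GRCm38.p6.
Actc1: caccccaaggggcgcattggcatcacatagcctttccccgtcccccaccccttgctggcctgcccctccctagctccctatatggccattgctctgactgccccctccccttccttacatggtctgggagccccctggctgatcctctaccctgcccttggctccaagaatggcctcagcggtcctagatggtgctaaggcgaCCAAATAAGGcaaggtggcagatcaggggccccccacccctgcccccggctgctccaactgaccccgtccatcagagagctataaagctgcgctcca
Myl3: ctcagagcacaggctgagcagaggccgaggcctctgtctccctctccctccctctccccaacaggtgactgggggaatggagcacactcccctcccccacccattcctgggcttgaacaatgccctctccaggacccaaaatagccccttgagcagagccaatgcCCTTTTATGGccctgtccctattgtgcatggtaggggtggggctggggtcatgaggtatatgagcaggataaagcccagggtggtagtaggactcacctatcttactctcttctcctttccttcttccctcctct
Myl7: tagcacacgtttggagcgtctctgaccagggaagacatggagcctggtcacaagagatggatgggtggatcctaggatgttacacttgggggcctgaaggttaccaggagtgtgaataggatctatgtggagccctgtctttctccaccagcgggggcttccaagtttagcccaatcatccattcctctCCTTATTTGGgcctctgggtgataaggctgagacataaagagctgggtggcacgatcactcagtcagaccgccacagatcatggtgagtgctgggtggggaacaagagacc
Myl3, a ventricular light chain, read 5.27, 5.07 and 4.95 in forelimb, against 9.17 and 8.18 in whole embryo. The motif TAATTA, the core of many homeodomain sites, was in 4.55% of windows of genes held higher, 2.74% of those held lower and 1 of the 17 heart genes, beside 3.29% of all windows. For the T-box motif AGGTGTGA the shares were 1.52% of genes held higher, 3.42% of those held lower and 2 of the 17 heart genes (11.8%), beside 1.06% of all windows. For CTTTGAA, a core bound by LEF and TCF factors, they were 4.55% of genes held higher, 2.74% of those held lower and 1 of the 17 heart genes, beside 4.24% of all windows. All were searched on both strands. The ratio of observed to expected CpG had a median of 0.24 in windows of the 17 heart genes, 0.82 in those of 19 neural genes held lower, 0.60 in those of genes held higher and 0.67 in those of all genes.

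Genes of axial tissues also held lower. In notochord and floor plate 4 of 9 genes held, Shh, Foxa1, Foxa2 and Spon1, and Foxa1, also a gene of gut endoderm, read 3.84, 3.90 and 3.67 in forelimb, against 7.87 and 8.12 in whole embryo. In tail bud and presomitic mesoderm 7 of 14 were called lower and 4 held. These were Dll1, Dll3, Cyp26a1 and Cdx4, the last reading 3.12, 3.00 and 3.22 in forelimb, against 5.78 and 4.61 in whole embryo. Its relative Cdx1 held in the other direction and read 7.48, 7.76 and 7.60 in forelimb, against 6.04 and 4.85 in whole embryo. Of the 3 mouse Cdx genes, all known from the posterior embryo, the forelimb arrays were thus above the embryo in one and below it in another.

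The listed genes of blood, cartilage condensation, mitosis and DNA replication did not pass these thresholds against both embryo arrays, where 1.57% of all genes did. At that share few genes of such lists would be counted as held in any case. None of 14 erythroid, 18 macrophage and blood progenitor, 14 cartilage condensation, 25 mitosis and 21 DNA replication genes held in either direction in limma, and Plk1, a mitotic kinase, was the only one called on the mean (1.07). Without adjustment 27 of these 92 genes had a limma p under 0.05, of which 1 reached a fold of 2. The share of all genes under that unadjusted p was not computed. The embryonic globin gene Hbb-bh1 read 13.41, 13.51 and 13.29 in forelimb, against 13.88 and 13.42 in whole embryo, and Hba-a1 differed by −0.16. In the replication list all 3 forelimb arrays lay above both embryo arrays in 9 of 21 genes, beside 27% of all genes, with medians of 0.21 against embryo array 1 and 0.49 against embryo array 2. Its median forelimb signal of 9.78 falls in the highest of the 4 groups of genes by forelimb signal. All genes of that group had medians of 0.15 and 0.48, so by its medians the list lay close to genes of its level.

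**Figure D5:**
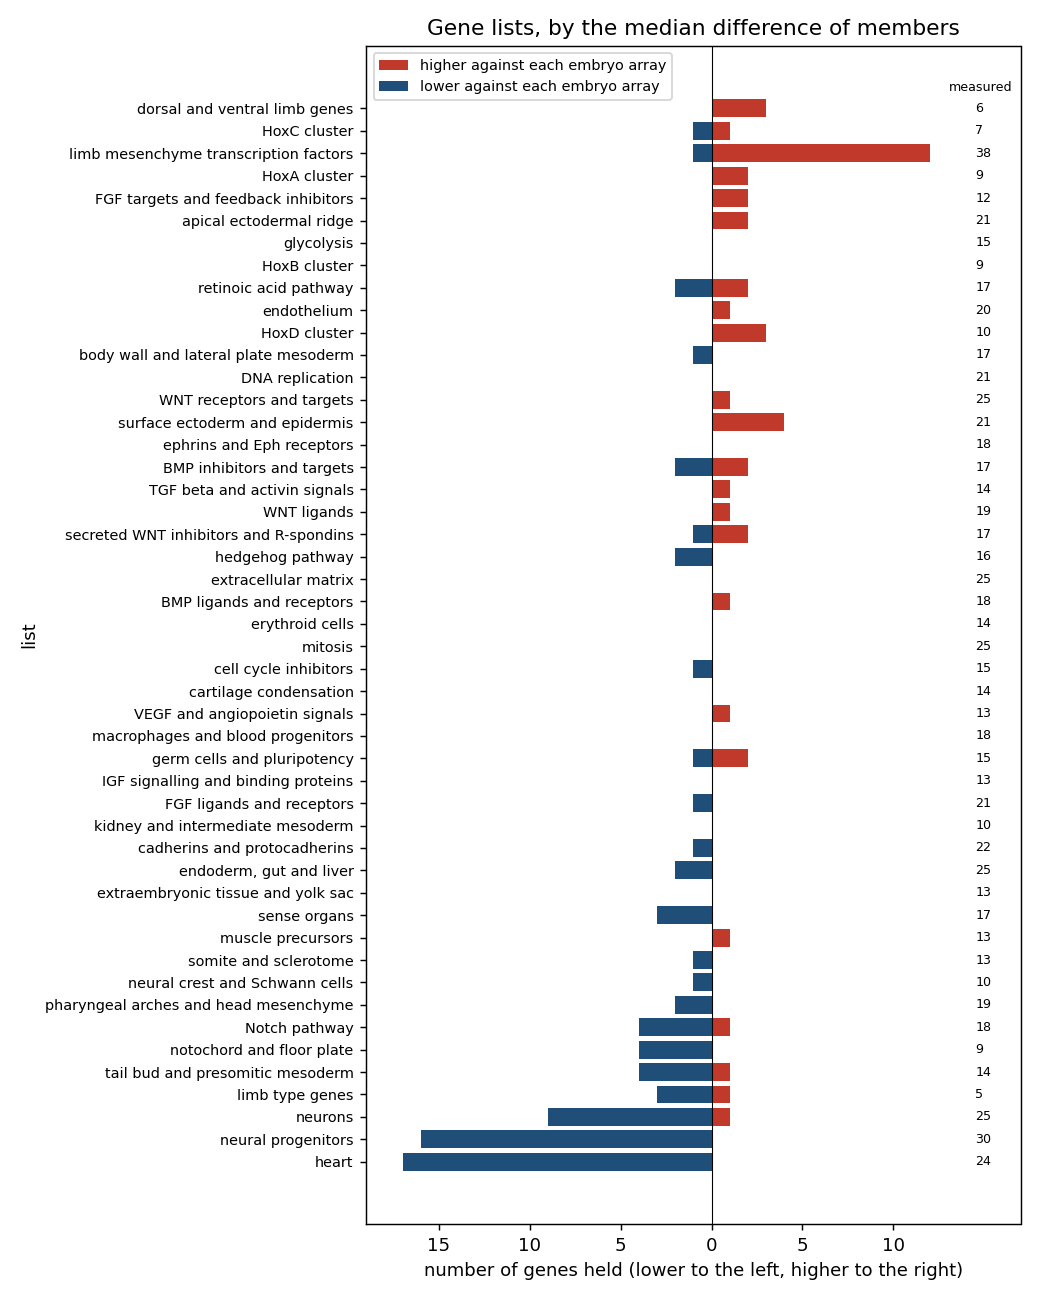
Number of genes of each of 48 lists that were lower (blue, to the left) and higher (red, to the right) in E9.5 forelimb against each embryo array, with the number measured at the right, ordered from the lowest median difference at the bottom. Heart (17 of 24) and neural progenitors (16 of 30) hold the most lower genes and limb mesenchyme transcription factors (12 of 38) the most higher genes.

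Genes that held lay close to each other in several places. With 100 kb as the largest distance, 11 of the 90 higher genes fell into 4 groups and 20 of 194 placed lower genes into 10 pairs. Besides the groups at Lmx1b, the HoxD and HoxA clusters and Scn4b, they were the pairs Myh6 and Myh7, Nppa and Nppb, Sox2 and Sox2ot, Pou3f3 and Pantr1, En2 and Cnpy1, Myl7 and Pgam2, Otx1 and Ehbp1, Myocd and Arhgap44, Asb2 and Fam181a, and Cdhr1 and 2610528A11Rik. The pairs were formed within 1 direction, so that both members go the same way by construction. Sox2ot, which overlaps Sox2, read 3.05, 3.14 and 3.14 in forelimb, against 5.67 and 5.77 in whole embryo. Pantr1 read 5.10, 5.38 and 4.78 in forelimb, against 8.43 and 8.96 in whole embryo, beside 4.62, 4.36 and 4.78 in forelimb, against 6.96 and 6.83 in whole embryo for Pou3f3. The share of neighbours that any such number of genes would give was not computed, and the pairs were named after their values were seen.

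Compared with the 2 whole embryos of E10.5, which are another pair of arrays of the same array set and a day older, 89 of the 90 higher genes kept their direction and 66 were called, and 193 of the 195 lower genes kept it and 161 were called. The forelimb arrays are the same in this comparison, so it varies the embryo alone. The 3′ to 5′ distances of the older embryo arrays were 2.63 and 2.56 for Gapdh and 1.60 and 1.45 for Actb. They too lay above those of the E9.5 forelimb arrays, whereas Tfrc, at 2.21 and 1.79, did not lie above all of them. A difference in quality between forelimb and embryo arrays thus remained. Bhlha9 differed by 3.11, Cdx1 by 3.04 and Lhx9 by 2.82 from the older embryo, and Sox2 by −7.24. Cdx4, at −0.10 with a limma adjusted p of 0.689, was not called. The genes that turned were Tmem178 among the higher ones (−0.05) and Phlda2 (1.14) and 2610528A11Rik (0.53) among the lower ones.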

How the data were processed

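Total RNA of 51 FVB limb or whole-embryo samples was hybridised to Affymetrix mouse arrays of 45101 probe sets. The authors ran RMA at default settings (background correction, normalization and summary per probe set), in a version not given in the sources used here, and the deposited values are signal intensities on a linear scale. Quality checks and the statistics of limma with a fold of 2 and an adjusted p under 0.001 are those of the study. The number of arrays limits the precision.

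Here log2 was taken, and the 34958 probe sets with exactly 1 gene symbol in the platform annotation were averaged to 18194 genes, 9012 of them with several probe sets. The 932 probe sets with several symbols and the 9211 without an entry were not used. Group labels follow the array titles. A single linear model over 14 groups was fitted (limma 3.58.1, R 4.3.3), without a filter on low signals, and tested by empirical Bayes moderated statistics with Benjamini-Hochberg adjustment over all genes. The 2 embryo arrays were also left out in turn. The fits were tested on simulated data without a difference in quality between the embryo arrays, so its effect was not tested.

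Named are, of the genes that held, the 20 highest and the 20 lowest by the smaller of the differences to either embryo array, members of 48 gene lists (709 of 753 genes measured), and, of the calls that did not hold, the 5 in each direction whose embryo arrays lay furthest apart. The comparison and the lists were chosen with earlier results of these data known. Promoter windows came from RefSeq (GRCm38.p6) by symbol, the first listed per gene, for 66 of 90 genes held higher and 146 of 195 held lower. The alternatives were the fit on fewer arrays, a covariate of 3′ bias, array weights, a variance trend, quantile normalization, the probe set of highest mean, a filter at a log2 signal of 5, an adjusted p of 0.05, replicate number as a block, the fit without 2 arrays of conflicting labels, E10.5 embryos and each array left out.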

Additional observations from a re-analysis of the deposited data

How the results depend on the processing

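All counts are at a fold of 2 and a limma adjusted p under 0.001, in the order called higher, called lower, held higher and held lower, which were 378, 293, 90 and 195. The E9.5 arrays fitted alone, with 3 residual degrees of freedom, gave 2, 17, 2 and 17, all among the genes above, and at an unadjusted p under 0.05 held 102 and 226. Whole-embryo and E9.5 forelimb arrays alone gave 68, 151, 42 and 112, and array weights 50, 52, 37 and 51. In these 3 fits all 90 and 195 genes kept their direction and a fold of 2. The fits on fewer arrays leave the group means unchanged, so there neither could differ. Under array weights the direction of a held gene could not change either. With the 3′ to 5′ distance of Gapdh and Actb as a covariate the counts were 36, 182, 0 and 0, at an unadjusted p under 0.05 in limma 33 and 230 held, all 90 and 195 kept their direction, and 65 and 184 kept a fold of 2. Under that covariate Cldn6 (−0.86), Dlx2 (−0.22), Epop (−1.07), Get3 (−0.93), Pfn1 (−1.31), Plk1 (−0.22) and Upf1 (−0.66), which were called higher and did not hold, turned lower. Quantile normalization gave 229 called higher and 352 called lower, and the probe set of highest mean 533 and 405. E10.5 embryos as the other side gave 445 called lower, 231 held higher and 321 held lower, and turned Car4 (1.42), Phlda2 (1.14), 2610528A11Rik (0.53) and Tmem178 (−0.05). The cause of these changes was not tested.

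Leaving out 1 array at a time gave 120 (without embryo array 2) to 1633 (without embryo array 1) genes called higher and 267 to 344 called lower. Without 1 forelimb array 82 to 93 held higher and 177 to 199 held lower. Replicate numbers name embryos, and no label pairs a forelimb with a whole embryo. Same-numbered samples deviated from their group means with correlations of −0.08 and −0.01. With 2 embryo arrays both values rest on the gap between those arrays, so they cannot show or exclude a pairing. With the replicate number as a block, 261 and 257 genes were called higher and lower, and 57 and 124 held. The other alternatives left all 4 counts within 1.5 times. Hand1, which was not called (−0.10), turned to 0.11 with the probe set of highest mean, 0.06 with the block, 0.33 against E10.5 embryos and −0.46 to 0.26 with 1 array left out, and Gata4 stood at −0.63 to 0.00 with 1 embryo array left out. With 2 embryo arrays, 1 litter of forelimbs and no detection calls, low signals and the spread between litters are the limits.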

Other observations

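Further genes of the bud held that no paragraph above described, and all but Prdm1, Foxc1, Six6, Cryab and Edn1, which are in the lists, were named after their values were seen. Prdm1, a transcriptional repressor known from germ cells and from the posterior limb mesenchyme, read 8.52, 8.63 and 8.53 in forelimb, against 7.02 and 7.24 in whole embryo. The germ cell gene Dppa3 was not called (−0.39). Among zinc finger factors Tshz1, the mouse relative of a Drosophila gene of trunk and proximal appendages, read 9.82, 9.90 and 9.79 in forelimb, against 8.38 and 8.07 in whole embryo, and Tshz2 read 6.42, 6.70 and 6.81 in forelimb, against 5.43 and 5.22 in whole embryo. Surface and secreted proteins of mesenchyme held as well. Gpc3, a glypican that limits growth, read 10.88, 10.89 and 10.77 in forelimb, against 9.64 and 9.16 in whole embryo, and Ddr2, a collagen receptor, read 9.06, 9.00 and 8.83 in forelimb, against 7.74 and 7.77 in whole embryo. Sema3a, a repulsive cue for axons and migrating cells, was 1.42 and 1.12 above embryo arrays 1 and 2.

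Outside heart and neural tube, the genes that held lower came from several tissues. Foxc1, a gene of somites and head mesenchyme, read 6.08, 6.08 and 6.07 in forelimb, against 7.99 and 7.62 in whole embryo. Of the sense organ genes Six6, a gene of the retina, read 3.12, 3.14 and 3.04 in forelimb, against 6.12 and 5.18 in whole embryo, and Cryab, a crystallin of lens and heart, differed by −1.88. Edn1, a signal of the pharyngeal arches, read 5.32, 5.11 and 4.97 in forelimb, against 6.44 and 6.38 in whole embryo. The BMP modulator Bmper read 4.15, 3.68 and 3.64 in forelimb, against 6.14 and 6.37 in whole embryo. Cxcr4, a chemokine receptor of migrating cells, was −3.26 and −1.64 relative to embryo arrays 1 and 2 and thus held with embryo arrays 1.62 apart.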
